A study of Mus musculus with 6 samples.

Results

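Retinoic acid is made from vitamin A and acts on transcription, and the 9 genes described here make it, carry it, sense it and break it down. They are Aldh1a1, Aldh1a2 and Aldh1a3 (synthesis), Crabp1 and Crabp2 (carriage in the cytoplasm), Rara, Rarb and Rarg (nuclear receptors) and Cyp26b1 (breakdown). They were taken by gene symbol, 9 of the 32028 genes summed from the transcripts in the count table. Of the 9, 6 had enough counts to be tested, 2 were sparse and 1 had no counts in any library.

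In the last step of synthesis, retinaldehyde is oxidised irreversibly to retinoic acid by the retinaldehyde dehydrogenases that the Aldh1a genes encode. The acid binds a retinoic acid receptor, which sits on DNA with a retinoid X receptor (RXR), and binding exchanges corepressors for coactivators at target genes. Several genes of the pathway are themselves textbook targets of the acid, among them Rarb, Crabp2 and the CYP26 enzymes, and embryonic mesenchyme, the tissue that fibroblast cultures derive from, is a classical place of its action.

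The cells were mouse embryonic fibroblasts (MEFs), and the study compared 3 clones without functional Macf1 with 3 clones that kept 1 intact copy. Macf1 encodes a large protein that links microtubules to actin. The knockout clones came from Macf1flox/flox mice and, by the series' protocol, had both copies recombined (Macf1-/-). The het clones came from Macf1flox/+ mice and had 1 recombined copy (Macf1-/+). All 6 lines had been immortalised with the SV40 large T antigen, exposed overnight to an adeno-associated virus with Cre under the ubiquitous CMV promoter (AAV8-CMV-Cre), grown out from single cells and brought to confluence before poly(A) RNA was taken. Each library is therefore 1 clone, every het clone has met Cre too, and the genotype cannot be told apart from differences between the embryos the clones came from. The labels do not say whether clones of a genotype came from separate embryos, so p-values measure the spread between these clones.

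The libraries held between 15661342 and 18209673 estimated counts. Macf1 itself was at 309, 363 and 322 CPM (counts scaled to a common library total) in knockout clones and at 693, 696 and 579 CPM in het clones, a log2 fold change of -0.99 (SE 0.13, edgeR quasi-likelihood adjusted p = 0.00307). The sum is over the whole gene, so it does not single out the deleted exons. Of the 12745 genes tested, 28.1% were called at an adjusted p below 0.05 (13.9% higher and 14.2% lower in knockout clones). At an unadjusted p below 0.05, 2630 were higher and 2650 lower. Of the 13 fibroblast markers listed, 10 were tested, 7 were lower, 0 higher (0 also at an unadjusted p below 0.05) and 3 not called, and their summed level was 6042 to 8657 CPM in knockout clones and 9868 to 13626 CPM in het clones. Col1a1 averaged 7.40 CPM in knockout clones and 1229 CPM in het clones, and Vim 2866 CPM in knockout clones and 2425 CPM in het clones. Thy1, Dcn and Lum were at 0 in all knockout clones. In het clones Lum was at 0 too, Thy1 had 1 count in total and Dcn had 17, 3 and 12 counts. Part of the labelled cell type's defining set was therefore missing or nearly so in both genotypes. Summed markers of other cell types ran, in knockout and het clones, at 0.246 to 0.488 and 0.299 to 1.24 CPM for epithelium, 2.63 to 3.21 and 1.56 to 3.26 CPM for endothelium, 21.3 to 26.4 and 11.2 to 16.4 CPM for leukocytes, 2.20 to 4.24 and 0.658 to 1.52 CPM for skeletal muscle, 23.1 to 133 and 59.9 to 73.0 CPM for mesothelium, and 103 to 111 and 82.2 to 194 CPM for neural crest and nerve cells, where Nes made up most of the sum. Among these markers Sox2 (0.559 CPM in knockout clones and 8.08 CPM in het clones) and Tubb3 (0.419 and 7.90 CPM) were lower in knockout clones, and Cd14 of leukocytes (18.9 and 7.95 CPM) and Des of muscle (3.09 and 1.104 CPM) were higher (edgeR adjusted p = 0.00333, 0.00633, 0.0257 and 0.0411). Msln, at 22.4 to 133 CPM in knockout clones and 59.4 to 72.9 CPM in het clones, made up most of the mesothelial sum. Cd14 and Cd68 together made up most of the leukocyte sum. Of the defining markers, Myod1, Myog and Myf5 (muscle), Adgre1 (macrophages) and Upk1b (mesothelium) were at 0 in all 6 clones. The fibroblast sums, Sox2 and Tubb3 moved with every fall reported for the retinoic acid genes below, and their part in those results was not tested.

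Of the 6 retinoic acid genes that could be tested, 4 fell in knockout clones (Crabp2, Cyp26b1, Rarb and Rarg), 0 rose and 2 were not called (Aldh1a3 and Rara). At an unadjusted p below 0.05 the counts were again 4 lower and 0 higher, beside 2650 lower and 2630 higher of all 12745 tested genes. Other tools called 0 higher too, where DESeq2 called 16.7% of its genes higher and limma-voom 14.2%. The share of all tested genes called lower at an adjusted p below 0.05 was 14.2%. DESeq2 called 4 lower, where 17.6% of its genes were, and limma-voom 2, where 13.3% were. Crabp2, Cyp26b1 and Rarb passed the filter on low counts through the het clones alone, so a gene like these could be tested only because het clones were high, and the count of 4 is not read as support. It was 2 without knockout replicate 1 or without knockout replicate 2, where 7.87% and 6.59% of all genes were lower. Without het replicate 2 it was 5, where 9.6% of all genes were lower. Crabp1 was added there and passed that filter only through the remaining het clones. With all clones Crabp1 was too sparse for the filter, and it had counts in het clones only. The plot of all 9 genes by clone shows the separation for Crabp1, Crabp2, Cyp26b1, Rarb and Rarg, 5 of the 9 genes. Without the untested Crabp1, these are 4 of the 6 tested genes. Between the 3 knockout and 3 het clones 47.5% of all tested genes did not overlap, 23.8% with knockout clones lower.

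**Figure D1:**
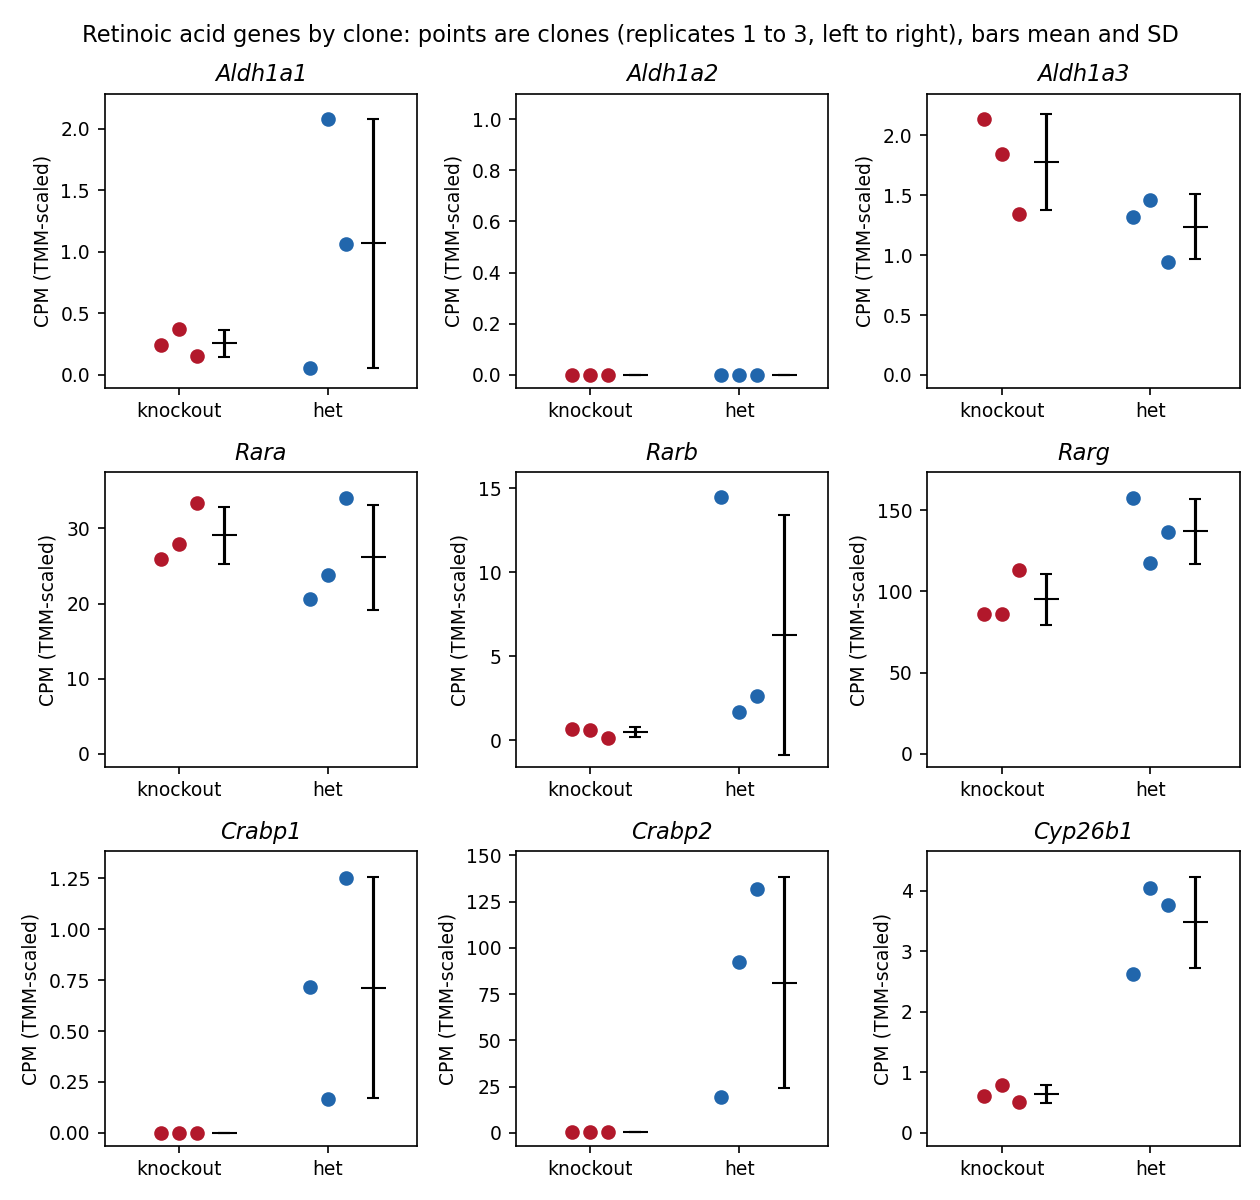
CPM on library sizes scaled by the trimmed mean of M values (TMM) for each of the 9 genes, with knockout clones in red on the left and het clones in blue on the right of each panel, 1 point per clone (replicates 1 to 3) and bars for mean and SD. Crabp2 lies at 0.366 to 0.569 CPM in knockout clones and at 19.2 to 132 CPM in het clones, while Rara and Aldh1a3 overlap.

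The binding proteins showed the largest difference of the 9 genes. Crabp2 (ENSMUSG00000004885, GRCm38 chromosome 3, 87948666 to 87953376, plus strand) encodes the cytoplasmic protein that passes retinoic acid to its receptors in the nucleus. It had 6, 6 and 11 estimated counts in knockout clones, against 320, 1646 and 2099 in het clones. Every knockout clone was far below the lowest het clone, and the het clones differed several-fold among themselves, with replicate 1 the lowest. Mean levels were 0.435 ± 0.116 CPM in knockout clones and 81.1 ± 57.1 CPM in het clones (SD, n = 3 each). The log2 fold change was -7.50 (SE 0.94, edgeR quasi-likelihood adjusted p = 0.00392), and the summed counts differed 182-fold (exact 95% interval 121 to 288, counting error only). In the authors' deposited table, the transcript Crabp2-201 has a log2 fold change of -7.59 and an adjusted p of 1.55e-25, in a table where 14% of the transcripts have an adjusted p below 0.05. The call held in 15 of 16 alternative settings, and limma-voom gave an adjusted p of 0.0778. In bulk RNA, fewer cells that make a transcript and less of it per cell cannot be told apart, here and for the other genes.

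Crabp1 (ENSMUSG00000032291, chromosome 9, 54764748 to 54773110, plus strand) encodes the related cytoplasmic protein that is known for holding retinoic acid and handing it to breakdown. It had 0 counts in all 3 knockout clones, against 12, 3 and 20 counts in het clones. The genotypes did not overlap, but het replicate 2 was itself at the detection floor of 3 counts. Over the group, 3 counts correspond to 0.0577 CPM in knockout clones, and against that floor Crabp1 was at least 12-fold lower in knockout clones. The filter on low counts left it out of the edgeR fit. An exact two-sided permutation test over the clones gave p = 0.1, the smallest value that 3 against 3 allows. Without the filter, edgeR gave a log2 fold change of -6.60 (adjusted p = 0.0179), which for a group at 0 depends on the prior count. Crabp1 made up 0% of the 2 binding proteins' mRNA per length in knockout clones and 4.17%, 0.211% and 1.09% in het clones, so Crabp2 was the main one wherever both were seen.

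Among the receptors, Rarg and Rarb fell and Rara was not called. All 3 encode ligand-dependent transcription factors that pair with an RXR. The stacked plot of receptor mRNA per length shows Rarg in the lead in every clone, then Rara, with Rarb a thin layer that is visible in het clones.

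**Figure D2:**
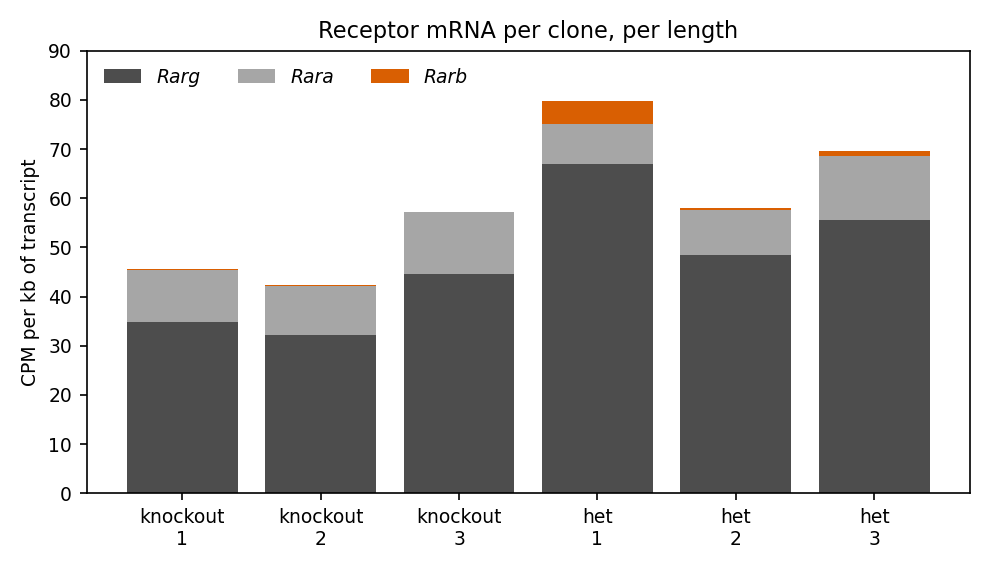
CPM per kilobase of transcript of Rarg, Rara and Rarb, stacked for each of the 3 knockout clones (left) and the 3 het clones (right), with no error bars because each bar is 1 clone. Rarg holds 75.7% to 77.9% of the stack in knockout clones and 79.8% to 84.0% in het clones.

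Rarb (ENSMUSG00000017491, chromosome 14, 16430839 to 16819156, minus strand) encodes the receptor whose own promoter is the standard example of a retinoic acid response element. It is shown here because this gene and Cyp26a1 were the pathway genes with a direct repeat spaced by 5 bases in the windows searched. RefSeq windows (GRCm38.p6, 250 bases before to 50 after a start) were matched for 7 of the 9 genes, all but Crabp2 and Aldh1a3, as 12 windows, and were searched on both strands. The search was for the half-site AGGTCA, for its variant AGTTCA, for another variant, GGGTCA, and for a last variant, GGTTCA. It also took in pairs of these in direct repeat with 5 bases between. The repeat was in 1 of the 12 windows. With the other pathway genes it was in 2 of 62 windows, those of Rarb and Cyp26a1. Over all 32851 windows of this length, 43.7% hold a half-site and 0.0974% hold the repeat. The capitals mark the repeat, from position -53 to -37 counted from the Rarb start on the gene's strand, and from -32 to -16 on the strand opposite to Cyp26a1. The Rarb stretch is chr14:16575506-16575535 on the minus strand, inside the annotated first exon of Rarb-201, and the Cyp26a1 stretch is chr19:37697770-37697799 on the minus strand.
Rarb: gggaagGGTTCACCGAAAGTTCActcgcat
Cyp26a1: acaaattAGTTCACCCAAAGTTCAtcttta
Both are matches of letters, and nothing in these data measures binding there.

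Rarb had 11, 10 and 2 counts in knockout clones, against 242, 30 and 42 counts in het clones. The genotypes did not overlap, and het replicate 1 stood well above the other het clones. In CPM the means were 0.463 ± 0.313 in knockout clones and 6.27 ± 7.13 in het clones (SD, n = 3 each), with a log2 fold change of -3.76 (SE 1.05, edgeR adjusted p = 0.0395). Summed counts differed 14.1-fold (exact 95% interval 9.21 to 22.5, counting error only). Without het replicate 1 the log2 fold change was -2.23 (adjusted p = 0.0484). The call held in 7 of 14 alternatives and was lost without knockout replicate 1, 2 or 3 (adjusted p = 0.104, 0.115 and 0.0960), without the filter (0.0731), with limma-voom (0.0950), against a fold of 1.5 (0.1002) and with the median of neighbouring genes taken out (0.0533).

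Cyp26a1, whose promoter carries the other repeat, encodes the most retinoic-acid-responsive of the clearing enzymes. It had 0.366, 0 and 0.310 CPM in knockout clones, against 0.120, 1.01 and 4.20 CPM in het clones. Its clones overlapped, the highest het clone was replicate 3, and the filter left it out of the test. Summed, it had 12 counts in knockout clones and 87 in het clones, 67 of them in het replicate 3. The sums differed 7.47-fold, lower in knockout clones as for Rarb (exact 95% interval 4.07 to 15.01, counting error only). Among het clones the 2 genes differed, with replicate 1 the highest for Rarb and the lowest for Cyp26a1.

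Rarg (ENSMUSG00000001288, chromosome 15, 102234938 to 102257517, minus strand) was the most abundant receptor. Its level was 85.8, 86.3 and 113 CPM in knockout clones, against 157, 117 and 136 CPM in het clones. The groups lay next to each other without overlap, with knockout replicate 3 close to het replicate 2. Means were 95 ± 15.5 CPM in knockout clones and 137 ± 19.99 CPM in het clones (SD, n = 3 each), with a log2 fold change of -0.53 (SE 0.16, edgeR adjusted p = 0.0443). The call held in 10 of 16 alternatives. It was lost with library totals as the scale (0.0660), against a fold of 1.5, and without knockout replicate 1 (0.135), knockout replicate 2 (0.154), het replicate 1 (0.0865) or het replicate 3 (0.1005).

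Rarg has 2 start sites that give receptors with different amino-terminal ends, and the transcripts from each were measured separately. Rarg-201 begins at base 102257517 and has 10 exons, and Rarg-202 begins at 102246500, inside the gene, and has 8 exons. The 250 bases before each start are given because Rarg-202 was called between genotypes and Rarg-201 was not. That contrast is not itself a test between the starts. Capitals mark the half-site AGGTCA read on the opposite strand (TGACCT) and the GC-box letters GGGCGG, which are counted on both strands. The upstream stretch is chr15:102257523-102257772 and the downstream one chr15:102246501-102246750, both on the minus strand.
Rarg upstream start: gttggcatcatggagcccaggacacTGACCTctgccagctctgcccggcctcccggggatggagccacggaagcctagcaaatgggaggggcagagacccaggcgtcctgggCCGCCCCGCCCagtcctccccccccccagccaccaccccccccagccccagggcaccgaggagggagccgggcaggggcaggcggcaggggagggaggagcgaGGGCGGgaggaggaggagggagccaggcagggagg
Rarg downstream start: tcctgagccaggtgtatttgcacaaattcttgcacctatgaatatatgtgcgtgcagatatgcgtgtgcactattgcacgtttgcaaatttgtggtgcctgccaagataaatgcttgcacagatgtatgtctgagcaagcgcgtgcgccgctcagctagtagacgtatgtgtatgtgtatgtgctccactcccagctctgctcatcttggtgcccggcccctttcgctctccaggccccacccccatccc
The upstream stretch held letters of both kinds. The downstream one held none of the motifs searched, which were the half-sites, their direct repeats spaced by 1, 2 or 5 bases, TATAAA and GGGCGG. Over all windows 35.7% hold GGGCGG and 13.6% hold TATAAA.

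Rarg-202 had 30.4, 27.9 and 35.1 CPM in knockout clones, against 92.1, 58.3 and 61.8 CPM in het clones. All knockout clones were below all het clones, with het replicate 1 the highest. The log2 fold change, fitted over 34761 transcripts, was -1.11 (SE 0.20, edgeR adjusted p = 0.0273), where 7.92% of the transcripts were called and 3.77% were lower. The authors' deposited table gives -1.14 with an adjusted p of 0.000241. Rarg-201 had 49.3, 56.3 and 72.4 CPM in knockout clones, against 54.1, 50.3 and 66.7 CPM in het clones. Its clones overlapped almost wholly, and the log2 fold change was 0.13 (SE 0.18, edgeR adjusted p = 0.722).

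As a share of both transcripts per length, Rarg-202 made up 40.1%, 35.0% and 34.5% in knockout clones and 64.9%, 55.8% and 50.2% in het clones. The shares did not overlap, averaging 36.5% ± 3.09 in knockout clones and 56.9% ± 7.43 in het clones (SD, n = 3 each). The exact two-sided permutation p was 0.1, the smallest possible. The test of the difference itself, Rarg-202 against the rest of the gene with edgeR's diffSpliceDGE, gave a log2 difference of -0.45, which did not pass adjustment over all transcripts (edgeR adjusted p = 0.748), where 0.696% were called. A different response of the 2 starts was therefore not shown at this depth. The other tested transcript, Rarg-205, begins at base 102257349, near the upstream start, and had a log2 fold change of -0.97 (edgeR adjusted p = 0.251). Its knockout clones, at 5.75, 1.75 and 4.74 CPM, lay below its het clones, at 10.05, 8.47 and 6.89 CPM. The transcripts share most of their exons, so their counts are estimates that divide shared reads.

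**Figure D3:**
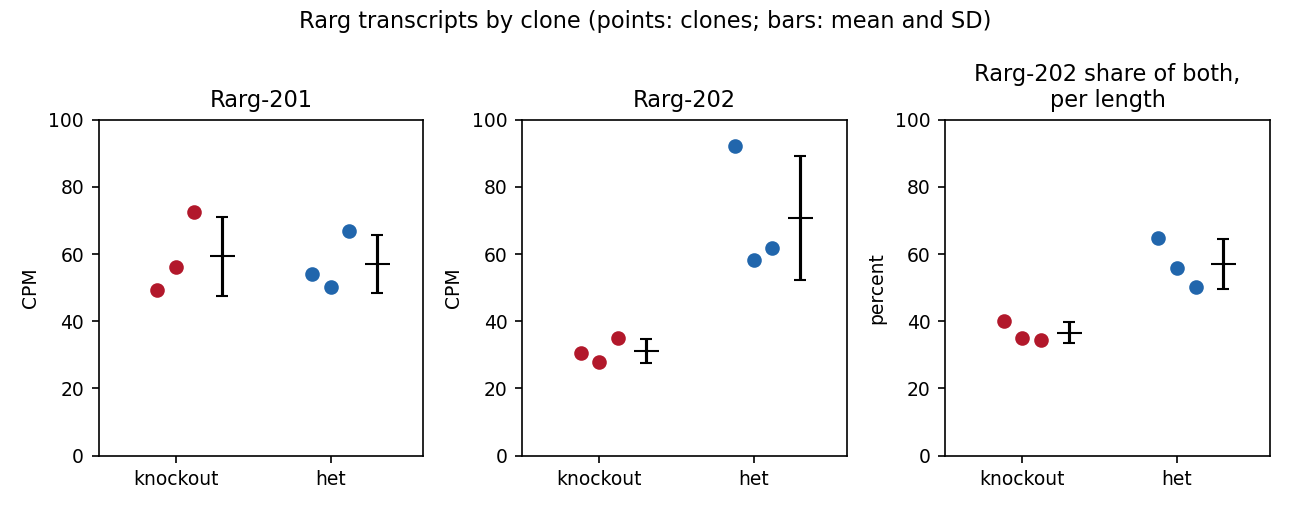
CPM of Rarg-201 (left) and Rarg-202 (middle), and the share of Rarg-202 in both per length in percent (right), with knockout clones in red and het clones in blue, 1 point per clone, bars mean and SD. Rarg-201 overlaps between genotypes, and the Rarg-202 share lies at 34.5% to 40.1% in knockout clones and 50.2% to 64.9% in het clones.

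Rara (ENSMUSG00000037992, chromosome 11, 98927818 to 98974942, plus strand), the most widely expressed receptor in mouse tissues, had 26.0, 27.9 and 33.3 CPM in knockout clones, against 20.6, 23.8 and 34.0 CPM in het clones. The knockout clones lay within the het range. The log2 fold change was 0.15 (SE 0.21, edgeR adjusted p = 0.616). Of its transcripts, Rara-203, Rara-204, Rara-202 and Rara-207 had log2 fold changes of -1.41, 0.87, 0.52 and 0.02 (edgeR adjusted p = 0.669, 0.537, 0.527 and 0.982). Per length, Rara made up 23.0%, 23.8% and 22.1% of receptor mRNA in knockout clones and 10.2%, 15.5% and 19.0% in het clones. Rarg made up 76.6%, 75.7% and 77.9% in knockout clones and 84.0%, 83.5% and 79.8% in het clones. Neither share overlapped between genotypes, and for Rarg the exact two-sided permutation p was again 0.1, the smallest possible. The share of Rara was examined after the values of the genes had been seen.

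The synthesis enzymes were at low levels in both genotypes, and none of them was called. Aldh1a3 (ENSMUSG00000015134, chromosome 7, 66390890 to 66427517, minus strand) was the one with the most counts, at 35, 30 and 26 in knockout clones and 22, 26 and 15 in het clones. The clones overlapped, with means of 1.78 ± 0.401 CPM in knockout clones and 1.24 ± 0.269 CPM in het clones (SD, n = 3 each). The log2 fold change was 0.51 (SE 0.34, edgeR adjusted p = 0.299). Most of its counts went to Aldh1a3-203, a shorter transcript of 7 exons that was not called either (log2 fold change 0.76, edgeR adjusted p = 0.28).

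Aldh1a1 (ENSMUSG00000053279, chromosome 19, 20492715 to 20643465, plus strand) had 4, 6 and 3 counts in knockout clones, against 1, 37 and 17 counts in het clones. Het replicate 1 was the lowest of all 6 clones and het replicates 2 and 3 the highest, so the genotypes overlapped. The filter left it out of the fit, and the exact two-sided permutation p was 0.4. Without het replicate 1 it passed the filter and was lower in knockout clones (log2 fold change -2.61, edgeR adjusted p = 0.0156). That fit leaves out the lowest clone, and the gene passed the filter only through the remaining het clones. The call is therefore not read as support. Aldh1a2 (ENSMUSG00000013584, chromosome 9, 71215789 to 71296243, plus strand), the main synthesis enzyme of the early embryo's mesoderm, had 0 counts in all 6 libraries. A count of 0 allows up to 3 counts, or 0.155 to 0.188 CPM in a library.

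Per length, Aldh1a3 made up 92.1%, 87.3% and 92.5% of the Aldh1a mRNA in knockout clones and 96.6%, 46.8% and 54.3% in het clones. The het clones fell on both sides of the knockout clones (exact two-sided permutation p = 0.4). Each of these shares rests on few counts, and the share of Aldh1a3 was examined after the values of the genes had been seen.

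Cyp26b1 (ENSMUSG00000063415, chromosome 6, 84571414 to 84593908, minus strand) encodes a cytochrome P450 that clears retinoic acid and is known for guarding limb bud and skin mesenchyme from it. It had 10, 13 and 10 counts in knockout clones, against 44, 72 and 60 counts in het clones. All knockout clones were below all het clones, and both genotypes were tight. The means were 0.642 ± 0.144 CPM in knockout clones and 3.48 ± 0.748 CPM in het clones (SD, n = 3 each), with a log2 fold change of -2.43 (SE 0.35, edgeR adjusted p = 0.00396). Summed counts differed 5.49-fold (exact 95% interval 3.77 to 8.23, counting error only). The call held in 14 of 14 alternatives, with log2 fold changes of -2.61 to -2.25.

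The counts of Cyp26b1 lay in 2 transcripts that begin inside the gene, except in knockout replicate 1, where they went to 3 others. Cyp26b1-204, which begins at base 84588638, had 0 CPM in all knockout clones and 1.24, 2.97 and 0.812 CPM in het clones (edgeR adjusted p = 0.0339 over the transcripts). It could be tested only because of its counts in het clones, so the call is not read as support. Against the rest of the gene its log2 difference was -3.41, which did not pass adjustment (edgeR diffSpliceDGE adjusted p = 0.592). Cyp26b1-205, which begins at 84587680, was not called (log2 fold change -1.96, edgeR adjusted p = 0.314). The annotation gives these as separate transcripts, but with so few reads the division between them is an estimate.

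**Figure D4:**
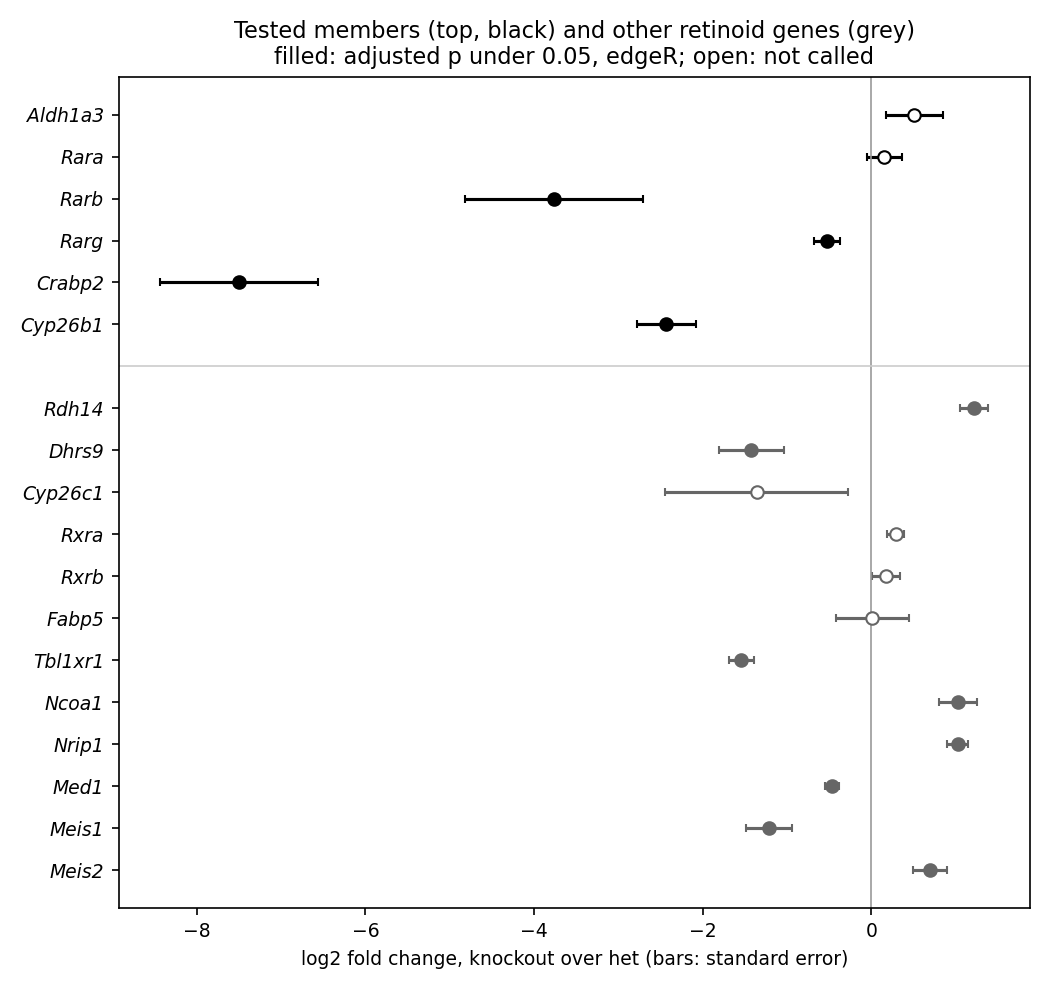
Log2 fold changes, knockout over het, with standard errors as bars, for the 6 tested genes (black, top) and other retinoid genes (grey), filled where the edgeR adjusted p is below 0.05. Crabp2 is lowest at -7.50, and Rdh14 at 1.22 is the highest of those shown.

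The order of the 9 genes by CPM per kilobase differed between the genotypes, with Crabp2, Crabp1 and Rarb placed higher in het clones and Aldh1a3 placed higher in knockout clones. In knockout clones Rarg led with 37.2 ± 6.59, then Rara with 11.1 ± 1.37, Aldh1a3 with 1.20 ± 0.244, Crabp2 with 0.483 ± 0.114, Cyp26b1 with 0.196 ± 0.0808, Rarb with 0.149 ± 0.101 and Aldh1a1 with 0.125 ± 0.0523 CPM per kilobase (SD, n = 3), and Crabp1 and Aldh1a2 were at 0. The neighbours in this order did not overlap down to Cyp26b1, while Cyp26b1, Rarb and Aldh1a1 overlapped. In het clones Crabp2 led with 87.2 ± 61.4, then Rarg with 57.0 ± 9.33, Rara with 10.1 ± 2.72, Rarb with 2.02 ± 2.29, Crabp1 with 0.890 ± 0.677, Cyp26b1 with 0.794 ± 0.169, Aldh1a3 with 0.777 ± 0.143 and Aldh1a1 with 0.521 ± 0.492 CPM per kilobase (SD, n = 3), and Aldh1a2 was at 0. Here Crabp2 and Rarg overlapped, Rarg, Rara and Rarb did not, and from Rarb to Aldh1a1 each gene overlapped the next.

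Of 48 other genes of retinoid biology, 34 were tested, and 5 rose, 6 fell and 23 were not called, beside 13.9% higher and 14.2% lower over all tested genes. The shares called were near that background, and nothing particular to the pathway is read from them or from the counts of the lists that follow. The median log2 fold change was -0.00 over these 34 genes and -0.00 over all tested genes.

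Of 22 genes for retinoid uptake, storage and the oxidation of retinol, 13 were tested, of which 1 rose, 2 fell and 10 were not called (over all genes 13.9% rose and 14.2% fell; median log2 fold change -0.59). Rdh14, a retinol dehydrogenase, rose to 17.1 ± 1.86 CPM in knockout clones, against 7.34 ± 0.872 CPM in the het clones (SD, n = 3 each; log2 fold change 1.22, edgeR adjusted p = 0.00374). Dhrs9, another retinol dehydrogenase, fell to 4.41 ± 1.44 CPM in knockout clones, against 11.8 ± 4.38 CPM in the het clones (SD, n = 3 each; log2 fold change -1.42, edgeR adjusted p = 0.0344). Leaving out a clone other than het replicate 1 ended its call, with edgeR adjusted p-values of 0.0739, 0.0892 and 0.0649 for knockout replicates 1, 2 and 3 and of 0.108 and 0.101 for het replicates 2 and 3.

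Rdh10 and Dhrs3, chosen after their values were seen, act on retinaldehyde, the substrate of the Aldh1a enzymes. Rdh10, which makes it, had 13.5 ± 1.20 CPM in knockout clones and 20.3 ± 5.70 CPM in het clones (SD, n = 3 each) and was not called (log2 fold change -0.59, edgeR adjusted p = 0.0847). Dhrs3, which turns it back to retinol, had 0.366, 0.246 and 2.22 CPM in knockout clones, against 4.07, 5.73 and 7.21 CPM in het clones. The genotypes did not overlap, knockout replicate 3 stood above the other knockout clones, and the gene was just short of the threshold (log2 fold change -2.55, edgeR adjusted p = 0.0511). It was called in 8 of 16 alternatives, among them DESeq2 (adjusted p = 0.00456), limma-voom (0.0184), the fit without het replicate 1 (0.0462) and that without knockout replicate 3 (log2 fold change -4.18, 0.00448). Like Crabp2, Dhrs3 passed the filter on low counts only because its het clones were high, so these calls are not read as support.

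The partners of the receptors were not called. Of 5 genes for RXR partners and alternative binding, 4 were tested, and 0 rose and 0 fell (over all genes 13.9% rose and 14.2% fell). At an unadjusted p below 0.05 the counts were 1 higher and 0 lower, beside 2630 higher and 2650 lower of all 12745 tested genes. Rxra, the most abundant partner, had 87.3 ± 2.45 CPM in knockout clones and 71.5 ± 6.29 CPM in het clones (SD, n = 3 each; log2 fold change 0.29, edgeR adjusted p = 0.0661). On the log2(FPKM + 1) scale limma called Rxra (adjusted p = 0.0432), and with the median of its neighbouring genes taken out its direction turned (-0.27). Rxrb had a log2 fold change of 0.17 (edgeR adjusted p = 0.477), and Rxrg had 0 counts in knockout clones and 2 in het clones. Fabp5, a fatty acid carrier described as bringing retinoic acid to another nuclear receptor, had 111 ± 33.3 CPM in knockout clones and 110 ± 60.1 CPM in het clones (SD, n = 3 each; edgeR adjusted p = 0.986). The clearing enzyme Cyp26c1 was not called (log2 fold change -1.36, edgeR adjusted p = 0.383).

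All 12 coregulators listed were tested, and 3 rose, 3 fell and 6 were not called (over all genes 13.9% rose and 14.2% fell; median log2 fold change 0.10). Tbl1xr1, an exchange factor of the corepressor complex, fell to 22.9 ± 2.26 CPM in knockout clones, against 66.6 ± 11.3 CPM in the het clones (SD, n = 3 each; log2 fold change -1.54, edgeR adjusted p = 0.00123). Nrip1, a corepressor of ligand-bound receptors and itself a retinoic acid target, rose to 51.5 ± 6.41 CPM in knockout clones, against 25.3 ± 1.06 CPM in the het clones (SD, n = 3 each; log2 fold change 1.02, edgeR adjusted p = 0.00223). The Mediator subunit Med1 fell (log2 fold change -0.46, edgeR adjusted p = 0.00917), as did, chosen after its value was seen, the corepressor's deacetylase Hdac3 (-0.54, 0.0280). The coactivators Ncoa1 (1.03, edgeR adjusted p = 0.0156) and, chosen after its value was seen, Ncoa2 (0.37, 0.0465) rose. The Ncoa1 call was lost without het replicate 2 (0.0591) and with its neighbours' median taken out (0.0848). The Ncoa2 call held in 6 of 16 alternatives and was lost when any clone but het replicate 1 was left out (edgeR adjusted p = 0.0725 to 0.141). The Hdac3 call held in 10 of 16 and was lost when knockout replicate 1, 2 or 3 (edgeR adjusted p-values 0.0881, 0.0895 and 0.0606) or het replicate 3 (0.0605) was left out.

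Of 12 textbook targets of retinoic acid besides the 9 genes, 7 were tested, and 2 rose, 2 fell and 3 were not called (over all genes 13.9% rose and 14.2% fell; median log2 fold change -0.66). The 2 that rose were Nrip1 and Meis2. Meis1, a homeobox gene that fell, averaged 2.74 CPM in knockout clones and 6.35 CPM in het clones (log2 fold change -1.21, edgeR adjusted p = 0.0184), and its relative Meis2 11.2 CPM in knockout clones and 6.90 CPM in het clones (0.69, 0.0395). The call of Meis1 was lost when knockout replicate 2 (edgeR adjusted p = 0.0825), het replicate 2 (0.0645) or het replicate 3 (0.0565) was left out, and that of Meis2 without any 1 clone other than het replicate 3 (0.0607 to 0.142).

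Across the 6 libraries, the genes with the most similar pattern to a retinoic acid gene were found by the root mean square difference of log2(CPM + 0.5), each gene centred on its mean, with Pearson's r as a description that the genotype difference itself raises. Crabp2 was most like Hoxd11 (0.300, r = 0.997) and Gjb2 (0.383, r = 0.994), which averaged 0 and 0.0172 CPM in knockout clones and 32.7 and 63.7 CPM in het clones. Rarb was most like Prune2 (0.263, r = 0.994) and Chst1 (0.282, r = 0.982). Cyp26b1 was like Cdk6 (0.103, r = 0.994), and Rarg most like Tmem243 (0.0376, r = 0.994) and Lacc1 (0.0586, r = 0.985). The 2 genes not called, Rara and Aldh1a3, were most like Arhgef17 (0.0590, r = 0.990) and Prrg2 (0.0639, r = 0.970), and Ctps (0.0455, r = 0.993) and Mtpn (0.0461, r = 0.990).

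**Figure D5:**
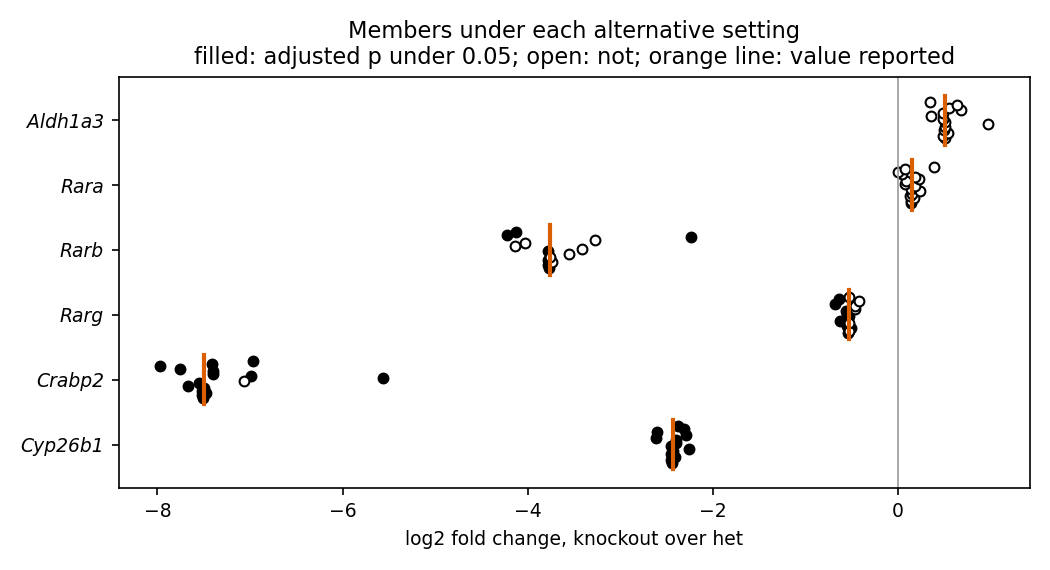
Log2 fold change, knockout over het, of each tested gene under every alternative setting, filled where the adjusted p is below 0.05, with an orange line at the reported value. All points of Cyp26b1 are filled, those of Rarb run from -4.22 to -2.23 with 7 of 14 filled, and those of Rara and Aldh1a3 are all open.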

How the data were processed

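The deposited count table holds kallisto's estimated counts of 96626 transcripts, not all of them whole numbers. FPKM values were deposited for 24799 transcripts. The authors' own comparison, also by transcript, gives log2 fold changes, log2 mean CPM and p-values with their adjusted form, per the file headers. Trimmomatic 0.36, kallisto 0.42.5, edgeR (version not given) and the build GRCm38.p4 are named per the submitters' processing notes.

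Transcripts were assigned to genes with GENCODE M21 (95213 transcripts) or the deposited comparison (260), and 1153 that matched neither were left out (0.0174% to 0.0278% of a library's counts). Counts were summed per gene and rounded. Genes were kept with filterByExpr (minimum 10, total minimum 15, about 0.582 CPM), scaled by TMM and fitted in edgeR 4.0.16 (R 4.3.3). The test was the robust quasi-likelihood F test, two-sided, at a Benjamini-Hochberg adjusted p below 0.05 over 12745 genes (34761 for transcripts). Standard errors were derived from the F statistic. CPM uses TMM-scaled library sizes, and CPM per kilobase divides each transcript's CPM by its length before summing. Intervals of pooled counts are exact 95% intervals and, like floors of 3 counts, cover counting error only. No 2 clones of a genotype agreed within sampling noise (chi-square over degrees of freedom 12.5 to 73.2). The script was tested on simulated counts.

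Alternatives were RLE scaling, library totals, no filter, a filter of 1 CPM in 3 libraries, a fold threshold of 1.5, the median of the 20 nearest tested genes on either side taken out, DESeq2 1.42.0, limma-voom and limma 3.58.1 on log2(FPKM + 1) and log2(FPKM + 0.1), and each clone left out. Transcript shares, the shares of Rara and Aldh1a3 and diffSpliceDGE were added after the data had been seen. Besides the 9 genes, the text names in each list up to 4 called genes with the smallest adjusted p, the 2 most abundant others where fewer than 2 were called, every RXR and CYP26 gene, and the 2 genes most like each tested gene. Some genes that this rule picks are not reported here. Members and lists were chosen with earlier results of these data known. No column of per-sample values was left unused.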

Additional observations from a re-analysis of the deposited data

How the results depend on the processing

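The count of retinoic acid genes lower in knockout clones, 4 as reported, was 2 against a fold of 1.5, 2 with limma-voom and 2 on either FPKM scale, where only 3 of the 9 genes are listed and 12.6% and 12.5% of all genes were lower; against a fold of 1.5 it was 6.07%. Leaving out 1 clone gave 2 to 5 lower, where 6.59% to 15.6% of all genes were, and 0 were higher throughout. The count of other pathway genes higher in knockout clones, 5 as reported, was 3 with library totals, 3 without the filter and 2 against a fold of 1.5, with 2 to 4 when 1 clone was left out. Over all genes 12.3%, 8.32% and 2.56% were higher in these settings, and 5.25% to 13.5% with 1 clone left out. The count lower, 6 as reported, was 2 against a fold of 1.5 (6.07% of all genes), with 3 to 9 when 1 clone was left out (6.59% to 15.6%). All called genes numbered 3585, against 1100 with the fold of 1.5 and 1566 to 3825 with 1 clone left out, fewest without knockout replicate 1 (1892) or 2 (1566). Directions turned for Rara-203 (-1.41) and Rarg-201 (0.13) as units in place of their genes. They also turned for genes that were not called. Fabp5 was at -0.0115 with library totals, -0.0055 with a filter of 1 CPM, -0.27 with the neighbours' median taken out and -0.30 to 0.51 with 1 clone left out, Rxra was at -0.27 and Rxrb at -0.0094 with that median taken out. The cause was not tested. On the log2(FPKM + 1) scale, which understates changes of low genes, Crabp2 differed by -5.57. Over the settings, 83 values of the 9 genes and their transcripts kept direction and call, 17 lost the call and 2 turned. Shares could not be given from FPKM values, which list too few of the genes. No paired analysis was possible because the labels number no replicates. Aldh1a1, Aldh1a2 and Crabp1 are limited by depth.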

Other observations

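Tested genes that lie next to a retinoic acid gene on its chromosome, 20 on either side, gave these values, where 28.1% of all tested genes were called. Around Crabp2 their median log2 fold change was 0.17, with 12 of 40 called, and around Cyp26b1 it was -0.18, with 7 of 40 called. It was -0.21 around Rarb (11 of 40), 0.10 around Rarg (9 of 40) and -0.08 around Rara (13 of 40). Around Aldh1a3 the median was -0.47, with 15 of 40 called, while Aldh1a3 itself was at 0.51.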
